A study of Homo sapiens with 4 samples.

Results

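The genes described here are those of phase 1 and phase 2 drug metabolism in HuH7, a human hepatocellular carcinoma cell line: cytochrome P450 genes, the UGT2 glucuronosyltransferases, the flavin monooxygenases, 3 esterases and the P450 reductase POR. They were taken by name, as every gene whose platform symbol begins with CYP1, CYP2, CYP3, CYP4, CYP7, CYP8, CYP27 or UGT2, without pseudogenes ending in P and a number, together with FMO1 to FMO5, CES1 to CES3, AADAC and POR. A probe had to list the gene alone, and this gave 65 of the 18417 genes tested. Read by its letters, the rule also takes in P450 families such as CYP11, CYP19, CYP26 and CYP46. It keeps 5 non-coding transcripts too, which leaves 60 coding members. Both groups were HuH7 cells below passage 10 in medium with 10% fetal bovine serum, infected with virus from the pLKO.1 vector and selected with puromycin for 7 days. One group stably expressed a control short hairpin RNA (shRNA, a transcript processed into a silencing RNA) and the other stably expressed MKL1/2 shRNA, directed against both MKL1 and MKL2. Each had 2 biological replicates with 1 array apiece, and no source used here says whether these came from separate infections or from clones. All p-values therefore measure the spread between these arrays, which may be technical.

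Cytochrome P450 enzymes are haem proteins, mostly of the endoplasmic reticulum, that oxidise drugs, steroids, fatty acids and bile acid precursors with electrons that POR delivers from NADPH. Flavin monooxygenases oxidise nitrogen and sulfur atoms of drugs, carboxylesterases and arylacetamide deacetylase cleave esters and amides, and UGT enzymes attach glucuronic acid so that products can leave in bile or urine. Hepatocytes express many of these genes strongly, hepatoma lines usually much less, and the nuclear receptors PXR and CAR, the aryl hydrocarbon (AH) receptor and liver transcription factors control them. MKL1 and MKL2, now named MRTFA and MRTFB, are actin-regulated co-activators of serum response factor (SRF), which binds a sequence called the CArG box.

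No drug metabolism gene passed the test, but the members lay more often on the higher side in knockdown cells than genes at large did. In limma, 0 of 65 members had an adjusted p under 0.05, where 0.174% of all genes did, and the smallest adjusted p was 0.0899, for FMO5. At an unadjusted p under 0.05 in limma, 14 members were higher (21.5% of members, against 6.25% of all genes tested) and 2 were lower (3.08%, against 8.04%). The 2 knockdown values both lay above the 2 control values for 27 members (41.5%, against 22.5% of all genes), and both below for 7 (10.8%, against 23.0%). The median log2 difference, knockdown minus control, was 0.097 over the members and 0.0082 over all genes. Taken for each knockdown array alone it came to 0.15 (replicate 1) and 0.093 (replicate 2), and between the 2 controls the members' median was 0.042. Most members are dim on these arrays: 49 of 65 lay at or below 6.31, the median level of the genes tested. Dim genes at large leaned to the higher side as well, with 5.47% higher and 3.92% lower at an unadjusted p under 0.05 in limma, whereas 10 and 1 of the 49 dim members were. Levels here are means of all 4 arrays, and 5 members would change sides by their control mean alone, among them UGT2B4 (control mean 5.74) and AADAC (6.07), which lie above 6.31 only through the knockdown arrays. No detection call or background level stands behind a value, and a probe's brightness does not measure its gene's expression against another gene's. Differences are therefore taken only between arrays, and words such as dim describe the probe signal. In these bulk RNA samples, fewer cells expressing a gene and less RNA per cell cannot be told apart.

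The members with the larger differences mostly lay further from the controls in knockdown replicate 1. Of the 9 members whose groups were apart and whose log2 difference was at least 0.5, 8 lay further from the controls in replicate 1, the exception being CYP19A1. No share is given of all genes apart by as much, so this count only describes the members. Over all members replicate 1 was the further array in 37 of 65, and over all genes in 10466 of 18417. No member was lower by at least 0.5 with its groups apart, and for this too no share of all genes is given. With replicate 1 as the lone knockdown array, 12 members passed an adjusted p of 0.05 in limma, at a share of 4.24% of all genes, and these were UGT2B4, FMO1, CYP2B6, AADAC, CYP4F3, CYP3A5, CYP4F12, UGT2B7, CYP1A1, FMO5, UGT2B17 and CYP2S1, all higher. With replicate 2 as the lone knockdown array 3 passed, with UGT2B4 and FMO1 higher and CYP1B1 lower, at a share of 1.62% of all genes. Without either control replicate no member passed, and no gene at all did. In these fits the single array of a group is assumed to vary like the other group.

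**Figure D1:**
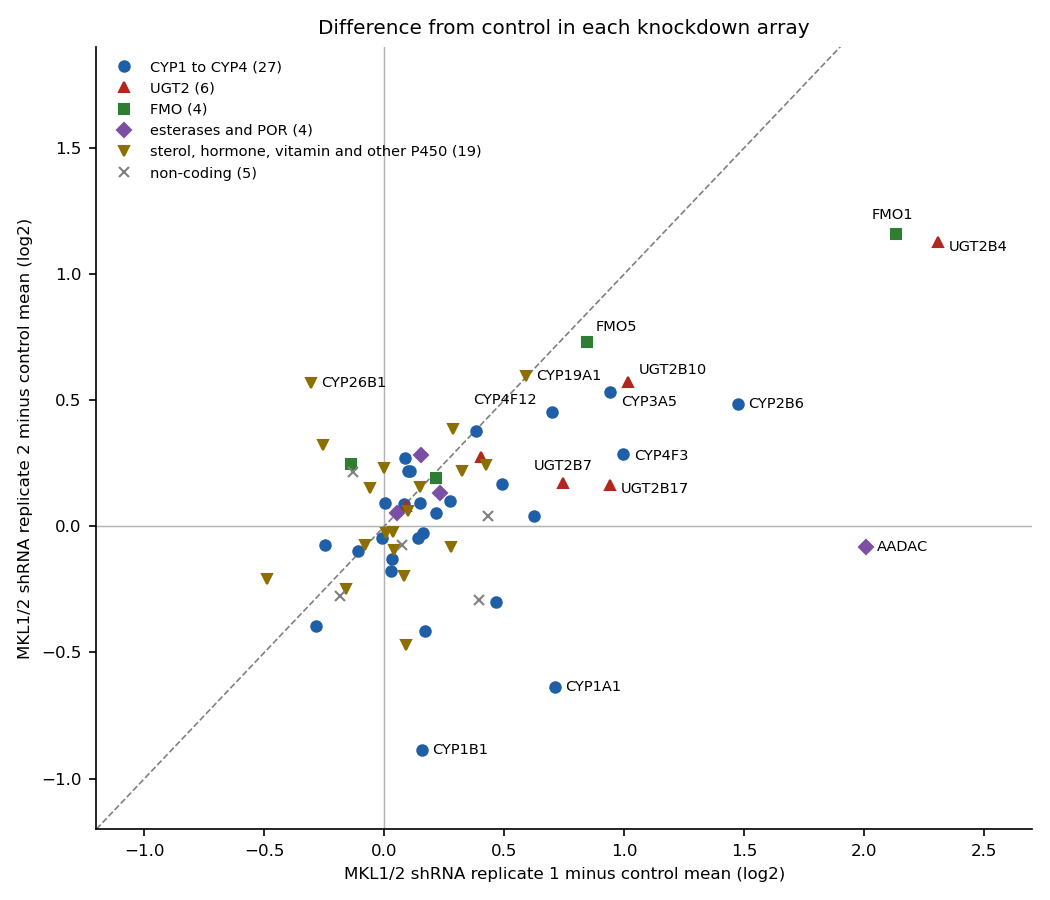
Each point is 1 of the 65 members, placed by its log2 difference from the control mean in knockdown replicate 1 (horizontal axis) and in replicate 2 (vertical axis), with colours and shapes for the enzyme classes and a dashed line where both differences are equal. UGT2B4 and FMO1 lie far to the right and high, AADAC lies at 2.01 in replicate 1 and -0.08 in replicate 2, and CYP1A1 and CYP1B1 lie below zero in replicate 2 alone.

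The UGT2 genes encode enzymes that glucuronidate bile acids, steroids and drugs. All 6 had a positive log2 difference, where 51.9% of all genes did and 60.1% of genes at or below the median level. UGT2B4, a bile acid glucuronosyltransferase of liver, read 5.59 and 5.89 in the control arrays and 8.05 and 6.87 in the knockdown arrays. Both knockdown values lay above both controls, and they lay further from each other than the controls did. Its means were 5.74 ± 0.216 and 7.46 ± 0.836 (SD, n = 2 each). They stood 1.72 apart on the log2 scale (SE 0.361), which did not pass in limma (adjusted p = 0.143). No fold is given, since UGT2B4 lies above the median level of the genes tested only through the knockdown arrays. UGT2B10, which N-glucuronidates nicotine and other amines, read 3.71 and 3.27 in control and 4.51 and 4.06 in knockdown cells. Its groups did not overlap and stood 0.79 apart on the log2 scale (SE 0.202, limma adjusted p = 0.187). UGT2B7, the main morphine glucuronosyltransferase, read 2.40 and 2.50 against 3.20 and 2.62. Its groups were apart too, with replicate 2 just above the controls and the means 0.46 apart (SE 0.19, limma adjusted p = 0.352). UGT2B17, which conjugates androgens, read 2.05 and 1.71 against 2.82 and 2.04, so that replicate 2 lay between the controls. UGT2B28 lay at a log2 difference of 0.34 with its groups apart. UGT2A3 had 2 probes that gave different answers: the one used read 3.86 and 3.54 against 3.79 and 3.78 (log2 difference 0.085), and the other read 3.16 and 2.88 against 3.91 and 3.91 (0.89). Values this low limit what a difference can mean, and no fold is given for them.

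Several UGT2B genes are so alike that the array also has probes annotated to more than 1 of them, which stand outside the 65 members and were not tested. The probe that lists UGT2B7, UGT2B10, UGT2B11, UGT2B15 and UGT2B17 read 6.67 and 6.61 in control and 8.67 and 7.72 in knockdown cells. A second shared probe lists UGT2B4, UGT2B28 and LOC101929773 and, like the first, UGT2B7, UGT2B10, UGT2B11 and UGT2B17, so both may read the same transcripts. It read 4.87 and 4.79 against 6.58 and 5.69. On both, knockdown values were above controls and replicate 1 was the higher one, with differences from the control mean of 2.03 and 1.08 on the first and 1.76 and 0.86 on the second. The probes that list UGT2B15 and UGT2B17 read 3.38 and 3.32 against 4.20 and 3.61. Since paralog transcripts can bind the same probes, a value for a single UGT2B gene may hold signal from its relatives. In the RefSeq gene table (assembly GRCh38.p14, used here for names and neighbours) UGT2B10, UGT2A3 and UGT2B7 follow each other with no other coding gene between them, and UGT2B28 and UGT2B4 are also direct neighbours.

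**Figure D2:**
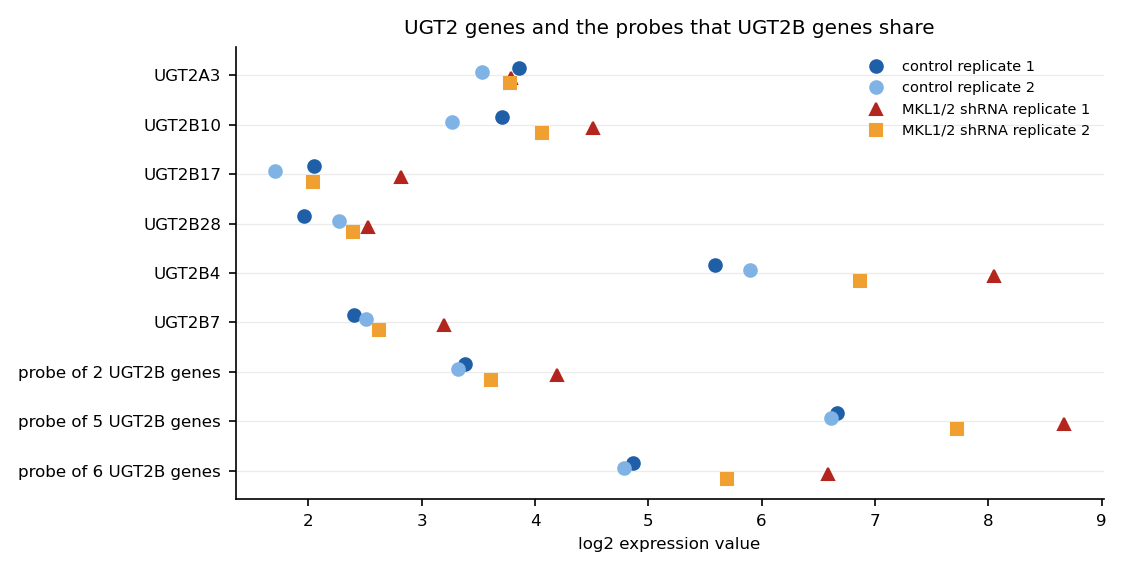
Log2 expression values of the 6 UGT2 genes and of 3 probes annotated to several UGT2B genes, with 1 point per array, circles for control and a triangle and a square for knockdown replicates 1 and 2. Knockdown replicate 1 is the highest array in every row but UGT2A3, where the 4 arrays overlap.

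The flavin monooxygenases also had positive differences in all 4 measured genes, the larger ones in FMO1 and FMO5. All 4 lay at or below the median level, where 60.1% of genes at large had positive differences. FMO1, the fetal liver and adult kidney form, read 3.07 and 3.25 in control and 5.29 and 4.32 in knockdown cells. Every knockdown value exceeded every control value by more than the controls differed from each other, and the means stood 1.65 apart on the log2 scale (SE 0.298, limma adjusted p = 0.12). Its control values lay below the lower quartile of every array, 3.99 at the lowest, so no fold is given. FMO5, an atypical member that works as a Baeyer-Villiger monooxygenase, read 5.10 and 4.85 against 5.82 and 5.71. Here the knockdown arrays agreed closely, at 0.85 and 0.73 above the control mean (log2 difference 0.79, SE 0.121, limma adjusted p = 0.0899). FMO4 lay at 0.20 (SE 0.109) with its groups apart, whereas FMO2, the lung form, read 3.56 and 3.22 against 3.25 and 3.64 and overlapped. FMO2, FMO1 and FMO4 are direct neighbours in the genome and FMO5 is not near them.

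Among the drug-oxidising CYP2 and CYP3 genes, CYP2B6 and CYP3A5 were the ones furthest from control. CYP2B6, which metabolises bupropion and efavirenz and is a standard target gene of CAR, read 4.82 and 4.75 in control and 6.26 and 5.27 in knockdown cells. Its knockdown values were both above the controls but nearly a log2 unit from each other, and the means differed by 0.98 (SE 0.297, limma adjusted p = 0.236). The pseudogene CYP2B7P, a near copy of CYP2B6, read 4.68 in knockdown replicate 1 and 4.29 in replicate 2 against 4.19 and 4.31. CYP3A5, a drug oxidase close to CYP3A4, read 4.55 and 4.50 against 5.46 and 5.06 (log2 difference 0.74, SE 0.149, limma adjusted p = 0.135). CYP3A4, the main drug-metabolising P450 of adult liver, read 2.55 and 2.81 against 3.06 and 3.06, near the bottom of the scale in all 4 arrays (0.38, SE 0.117, limma adjusted p = 0.242). CYP3A43, a minor form, lay at 0.19. The probe of CYP3A7, the fetal liver form, also lists a read-through transcript and so is no member; it read 3.49 and 4.13 against 4.68 and 4.61. All 3 CYP3 members and that probe thus had higher values in both knockdown arrays, as 22.5% of all genes did. All have close relatives in the same gene cluster.

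The other CYP2 genes had smaller differences, of either sign. CYP2E1, the ethanol-inducible form, read 5.18 and 5.09 against 5.25 and 5.36 (log2 difference 0.16, SE 0.101), and CYP2C8, which oxidises paclitaxel, read 3.16 and 3.43 against 3.40 and 3.51 (0.16, SE 0.123). CYP2D6, known for its polymorphic drug metabolism, read 6.54 and 6.58 against 6.59 and 6.43, and its pseudogene CYP2D7 read 6.56 and 6.36 against 6.27 and 6.18. CYP2S1, an extrahepatic form, read 7.47 in knockdown replicate 1 and 6.88 in replicate 2, the latter between the controls at 6.76 and 6.92. CYP2U1, which hydroxylates long-chain fatty acids, was 1 of the 2 members lower at an unadjusted p under 0.05, at -0.34 (SE 0.113, limma adjusted p = 0.267), with 5.03 and 5.23 against 4.85 and 4.74. The second was CYP20A1, an orphan P450, with 7.48 and 7.43 against 6.96 and 7.24 (-0.35, SE 0.123, limma adjusted p = 0.286). CYP2F1, CYP2J2 and CYP2W1 lay between -0.12 for CYP2J2 and 0.12 for CYP2F1. Probes shared by CYP2A6, CYP2A7 and CYP2A13 lay at 0.036 and 0.087.

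**Figure D3:**
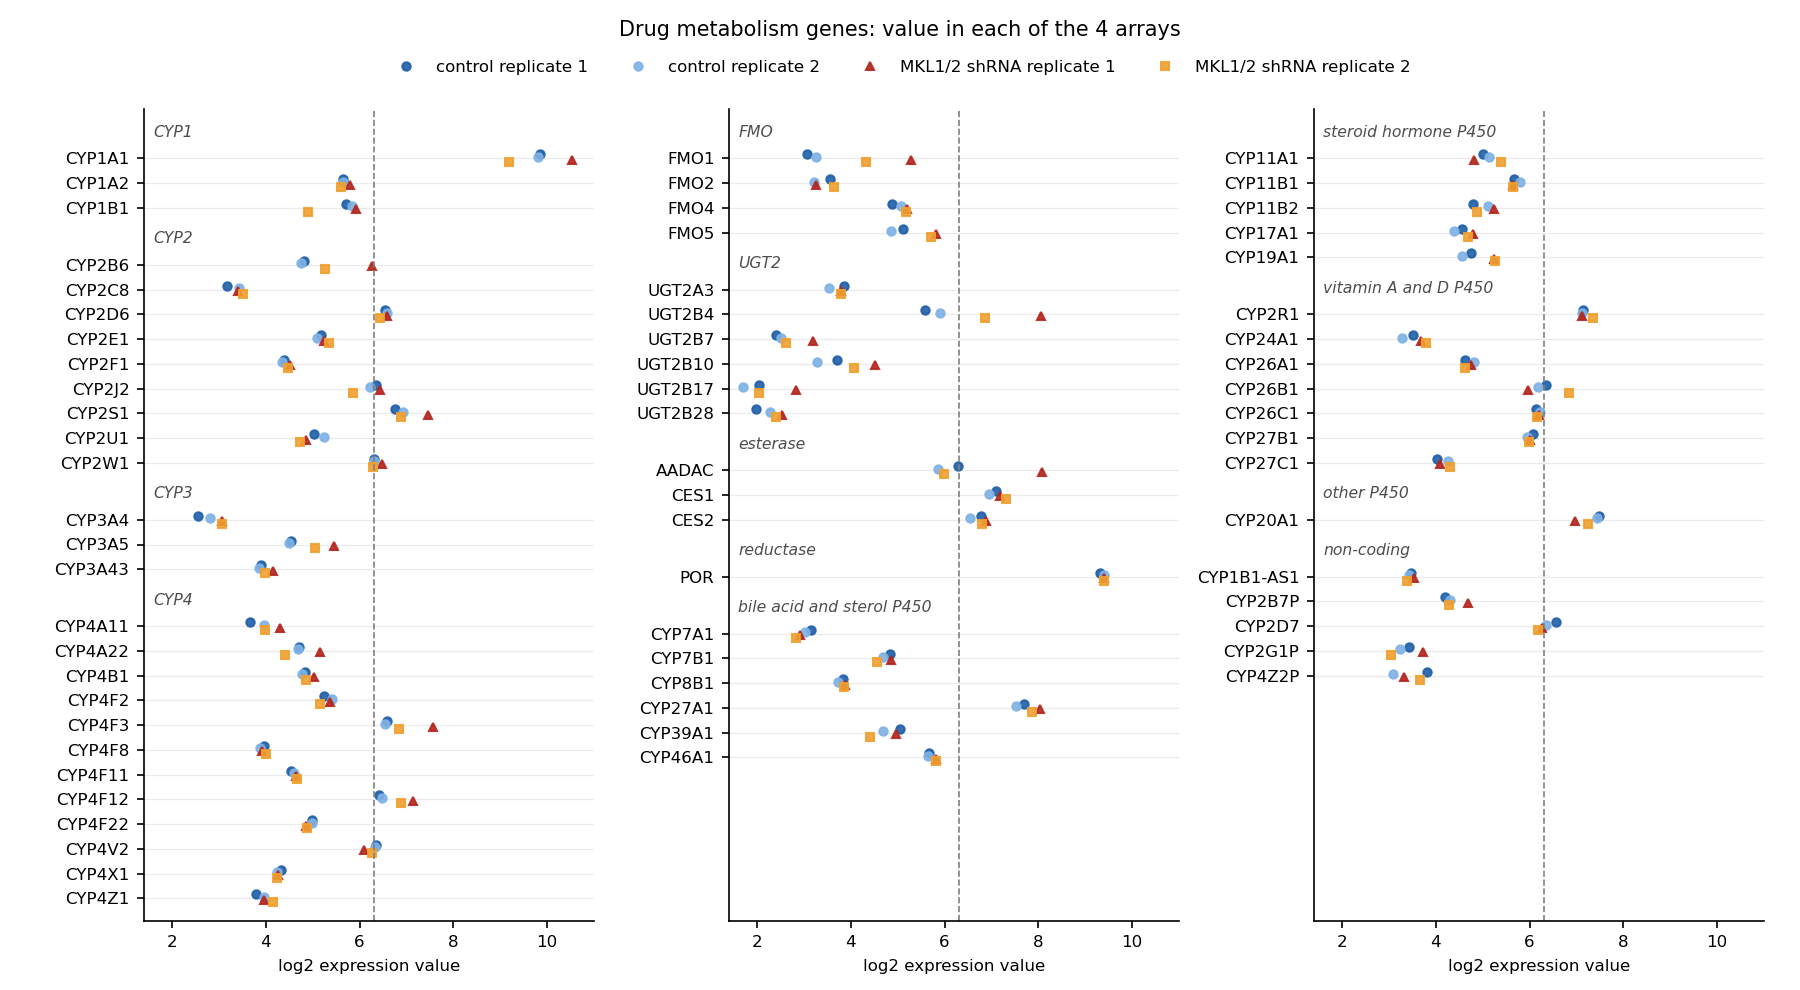
Log2 expression values of all 65 members, 1 point per array, sorted by name within each enzyme class. Circles are control arrays, triangles and squares are knockdown replicates 1 and 2, and the dashed line marks 6.31, the median level of all genes tested. Control circles lie close together in most rows, while triangles and squares separate in rows such as CYP1A1, AADAC, CYP2B6 and UGT2B4.

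The CYP1 genes, the classical targets of the AH receptor, split between the knockdown replicates. CYP1A1, which oxidises polycyclic aromatic hydrocarbons, read 9.85 and 9.80 in the controls, 10.54 in knockdown replicate 1 and 9.19 in replicate 2. One knockdown array was thus 0.71 above and the other 0.64 below the control mean, so the mean difference of 0.037 (SE 0.396) describes neither. CYP1B1, an oestradiol hydroxylase, read 5.72 and 5.84 in the controls, 5.93 in replicate 1 and 4.89 in replicate 2. CYP1A2, the caffeine demethylase of liver, showed the same order on a smaller scale, with 5.64 and 5.65 against 5.79 and 5.60. The antisense transcript CYP1B1-AS1 read 3.47 and 3.44 against 3.52 and 3.38. In all, 10 of 65 members lay above both controls in replicate 1 and below both in replicate 2, and 2 (CYP11A1 and CYP26B1) the other way round. Such splits were about as common among genes at large. Of all 18417 genes, 3568 had their knockdown arrays on opposite sides of both controls, and 2052 of these were above in replicate 1. AHR, the receptor gene itself, was higher in both, with 9.86 and 9.78 against 10.48 and 10.17 (0.51, SE 0.129, limma adjusted p = 0.187), and its partner gene ARNT lay at -0.17 (SE 0.0925).

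Promoters are shown for 5 members, CYP1A1 for its opposite values in the knockdown arrays and CYP2B6, CYP3A5, FMO1 and FMO5 as examples, chosen after their values were seen, of members with groups apart by at least 0.5 and an entry in the RefSeq promoter table. Each runs 5′ to 3′ from 250 bases before to 50 bases after the gene start (build GRCh38.p14). CYP1A1 is at chr15:74725479-74725778 on the minus strand, CYP2B6 at chr19:40991032-40991331 on the plus strand, CYP3A5 at chr7:99679947-99680246 on the minus strand, FMO1 at chr1:171248244-171248543 on the plus strand and FMO5 at chr1:147225290-147225589 on the minus strand. Capitals mark matches on either strand to the CArG box, GGAATG (TEAD factors), GCGTG (AH receptor core), AGGTCA (half-site of nuclear receptors) or TGANTCA (AP-1).
CYP1A1: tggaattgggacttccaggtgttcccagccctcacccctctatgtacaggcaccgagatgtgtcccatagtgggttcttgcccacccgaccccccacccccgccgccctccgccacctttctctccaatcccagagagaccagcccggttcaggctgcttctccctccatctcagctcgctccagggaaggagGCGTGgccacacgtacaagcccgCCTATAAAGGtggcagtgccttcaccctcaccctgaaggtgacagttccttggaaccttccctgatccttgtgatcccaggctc
CYP2B6: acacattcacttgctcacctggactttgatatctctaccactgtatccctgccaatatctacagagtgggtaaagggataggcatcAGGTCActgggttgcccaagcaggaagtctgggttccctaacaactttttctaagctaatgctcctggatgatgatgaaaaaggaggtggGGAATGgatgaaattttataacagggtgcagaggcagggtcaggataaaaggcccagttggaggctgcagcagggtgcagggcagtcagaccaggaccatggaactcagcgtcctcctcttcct
CYP3A5: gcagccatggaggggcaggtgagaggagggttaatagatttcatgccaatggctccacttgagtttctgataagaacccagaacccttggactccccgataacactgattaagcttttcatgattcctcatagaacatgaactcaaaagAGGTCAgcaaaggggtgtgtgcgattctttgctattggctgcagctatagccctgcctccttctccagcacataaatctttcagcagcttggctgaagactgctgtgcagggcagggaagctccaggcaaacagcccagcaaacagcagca
FMO1: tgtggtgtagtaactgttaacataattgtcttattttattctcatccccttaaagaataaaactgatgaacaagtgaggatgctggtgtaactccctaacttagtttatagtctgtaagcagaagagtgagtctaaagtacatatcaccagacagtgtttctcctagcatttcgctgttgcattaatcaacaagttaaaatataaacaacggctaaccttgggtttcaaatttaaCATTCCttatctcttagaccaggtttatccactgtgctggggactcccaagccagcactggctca
FMO5: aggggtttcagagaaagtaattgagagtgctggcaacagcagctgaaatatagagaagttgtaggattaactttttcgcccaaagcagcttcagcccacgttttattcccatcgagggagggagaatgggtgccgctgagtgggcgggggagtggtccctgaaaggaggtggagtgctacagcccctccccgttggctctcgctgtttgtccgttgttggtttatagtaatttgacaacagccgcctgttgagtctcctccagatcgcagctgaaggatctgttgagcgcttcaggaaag

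In these windows CYP1A1 held GCGTG and the one CArG match among the members, from -34 to -25 relative to the start base, counted as 0. The middle 6 letters of that match are TATAAA, the letters of a TATA box. CYP2B6 held AGGTCA and GGAATG, CYP3A5 held AGGTCA and FMO1 held GGAATG on the reverse strand. The FMO5 window held none of the 5 motifs, which says only that these letters are not in it. Of 65 members, 41 had a promoter in the table, and UGT2B4 was not one of them. AGGTCA was present in 11 of the 41 (26.8%), against 13.9% of all 27305 promoters of the same length. The 11 were CYP2B6, CYP2E1, CYP2S1, CYP3A4, CYP3A5, CYP4B1, CYP4V2, CYP17A1, CYP19A1, CYP27C1 and UGT2B10. Their log2 differences ran from -0.16 for CYP4V2 to 0.98 for CYP2B6, and the groups of CYP2S1 and CYP27C1 overlapped. The CArG box was in 1 of 41 (2.44%, against 1.29%), GGAATG in 4 (9.76%, against 14.0%), GCGTG in 12 (29.3%, against 36.3%) and TGANTCA in 2 (4.88%, against 7.76%). Matches to different motifs overlapped in 1 member, CYP2W1. A match is a run of letters, and binding was not measured.

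The CYP4 genes encode fatty acid and eicosanoid hydroxylases, and 2 neighbours of the CYP4F cluster stood out among the 12 measured. CYP4F3, a leukotriene B4 hydroxylase, read 6.59 and 6.54 in control and 7.56 and 6.85 in knockdown cells. Both knockdown values exceeded the controls, by a factor of 1.56 on the means (log2 difference 0.64, SE 0.223, limma adjusted p = 0.283). CYP4F12, the gene next to it, read 6.41 and 6.47 against 7.14 and 6.89, a factor of 1.49 (0.58, SE 0.117, limma adjusted p = 0.136). The other measured CYP4F genes, CYP4F2, CYP4F8, CYP4F11 and CYP4F22, lay between -0.10 for CYP4F22 and 0.086 for CYP4F11. CYP4A11, a lauric acid hydroxylase, read 3.65 and 3.96 against 4.30 and 3.97 (0.33, SE 0.156), and its near copy CYP4A22 read 4.70 and 4.70 against 5.16 and 4.40. CYP4V2, CYP4B1, CYP4X1 and CYP4Z1 lay between -0.16 for CYP4V2 and 0.18 for CYP4Z1.

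The esterases and POR lay near their control values, apart from 1 array for AADAC. AADAC, the arylacetamide deacetylase, read 6.28 and 5.87 in control cells, 8.08 in knockdown replicate 1 and 5.99 in replicate 2. The groups overlapped, since replicate 2 lay between the controls, and the mean difference of 0.96 (SE 0.616, limma adjusted p = 0.539) rests on replicate 1 alone. It was 2.01 with replicate 1 and -0.08 with replicate 2 as the lone knockdown array. CES1, the main hepatic carboxylesterase, read 7.10 and 6.95 against 7.18 and 7.31, and CES2, which activates irinotecan, read 6.77 and 6.54 against 6.89 and 6.79. Both were just above the controls, by 0.22 (SE 0.107) and 0.18 (SE 0.116). POR was the steadiest of these genes, with 9.32 and 9.39 against 9.41 and 9.41 (0.053, SE 0.0937, limma adjusted p = 0.858).

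P450 genes of bile acid and sterol metabolism showed no common direction. CYP27A1, the mitochondrial sterol 27-hydroxylase, read 7.69 and 7.53 in control and 8.03 and 7.85 in knockdown cells, 0.33 higher on the log2 scale (SE 0.114, limma adjusted p = 0.276). CYP7A1, the rate-limiting enzyme of bile acid synthesis, read 3.15 and 3.01 against 2.92 and 2.83, and CYP8B1, the 12-alpha-hydroxylase of cholic acid synthesis, 3.84 and 3.73 against 3.88 and 3.85. Both read near the bottom of the scale in every array. CYP46A1 lay at 0.15 with its groups apart, whereas CYP7B1 and CYP39A1, both oxysterol 7-alpha-hydroxylases, lay at -0.06 and -0.19 with overlapping groups.

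Of the P450 genes for steroid hormones and vitamins that share the prefixes, CYP19A1 differed most. CYP19A1, the aromatase that makes oestrogens, read 4.75 and 4.56 against 5.25 and 5.26, higher by 0.59 (SE 0.107, limma adjusted p = 0.119) with nearly equal knockdown arrays. CYP17A1, the steroid 17-hydroxylase and lyase, lay at 0.27 (SE 0.109), and CYP11A1, CYP11B1 and CYP11B2 lay between -0.08 for CYP11B1 and 0.097 for CYP11B2. CYP24A1, which inactivates vitamin D, read 3.52 and 3.28 against 3.69 and 3.79 (0.34, SE 0.118). CYP26B1, a retinoic acid hydroxylase, read 5.97 in knockdown replicate 1 and 6.84 in replicate 2 against 6.36 and 6.18. CYP26A1, CYP26C1, CYP27B1, CYP27C1 and CYP2R1 lay between -0.03 for CYP26A1 and 0.12 for CYP2R1, all with overlapping groups. The non-coding CYP2G1P and CYP4Z2P lay at 0.052 and 0.043 and overlapped.

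Other genes of drug handling were counted from lists chosen for their roles, with earlier results of these data known. Their counts therefore only describe the lists. In limma no gene of any of these 6 lists had an adjusted p under 0.05. Among 32 other conjugating and hydrolysing enzymes, 11 were higher and 1 lower at an unadjusted p under 0.05 in limma, where 6.25% of all genes were higher and 8.04% lower, with a median log2 difference of 0.11. GSTM4 and GSTA1, glutathione transferases with close paralogs, had the smallest p, with 7.59 and 7.36 against 8.34 and 8.48 for GSTM4 (0.93, SE 0.119, limma adjusted p = 0.0688) and 5.32 and 5.31 against 6.29 and 6.82 for GSTA1 (1.24, SE 0.178, limma adjusted p = 0.0838). The lactonase PON3 and the histamine methyltransferase HNMT had the smallest p among those below control, at -0.36 (SE 0.101) and -0.16 (SE 0.0922). By the same measure 5 of 19 drug and bile acid transporters were higher and none lower, with a median of 0.33. SLC47A1, the organic cation exporter MATE1, lay at 1.04 (SE 0.126, limma adjusted p = 0.0563) and SLC22A9, an organic anion transporter, at 0.76 (SE 0.114), while the exporters ABCC1 and ABCC4 lay at -0.16 and -0.20. Of 8 bile acid synthesis enzymes outside the P450 family 5 were higher and none lower, with a median of 0.44 and a highest difference of 0.84. The smallest p belonged to AKR1D1, the 5-beta-reductase, at 0.48 (SE 0.118) and HSD17B4 of peroxisomal side-chain oxidation at 0.40 (SE 0.102). The conjugating ligase SLC27A5 lay at -0.03.

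Genes that supply or regulate the P450 enzymes had at most 1 gene in each direction at an unadjusted p under 0.05 in limma. A single gene is 10.0% of the receptor list, 7.69% of the transcription factor list and 6.25% of the haem list. Of all genes 6.25% were higher and 8.04% lower, so these counts lie near the share of genes at large. Of 10 xenobiotic and bile acid receptor genes AHR was the 1 at an unadjusted p under 0.05, and NR0B2, which encodes the repressor SHP, read 7.26 and 7.42 against 7.57 and 8.73. NR3C1, the glucocorticoid receptor gene, lay at -0.07. Of 13 liver transcription factor genes 1 was higher, HLF, at 0.63 (SE 0.148), and 1 lower, FOXA1, at -0.26 (SE 0.094), with NFE2L2 at 0.19 and FOXA3 at -0.18. Of 16 genes for electron donors and haem supply 1 was higher, CYB5A, the cytochrome b5 that assists some P450 reactions, with 10.01 and 10.00 against 10.65 and 10.47 (0.55, SE 0.105, limma adjusted p = 0.128). The 1 lower gene was FECH, the ferrochelatase that completes haem, at -0.48 (SE 0.0933, limma adjusted p = 0.132). UROD and CYB5B lay at 0.20 and -0.22.

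**Figure D4:**
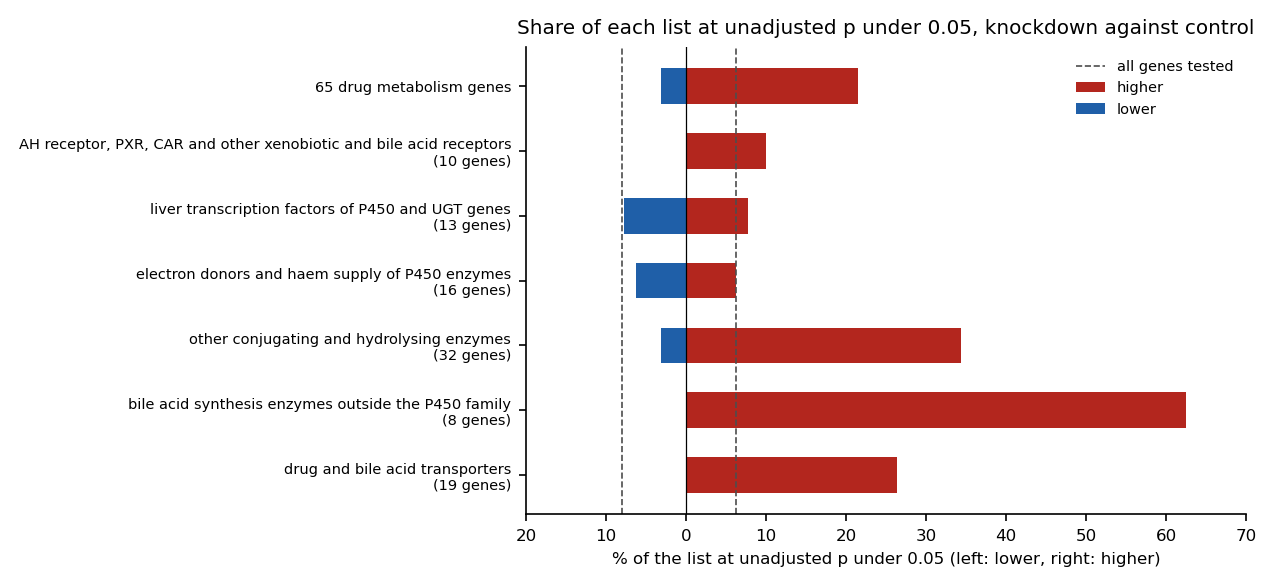
Bars give the percentage of each gene list that was higher (right, red) or lower (left, blue) in knockdown cells at an unadjusted p under 0.05 in limma, and dashed lines give 6.25% and 8.04%, the shares of all genes tested. The drug metabolism genes, the other conjugating enzymes, the bile acid synthesis enzymes and the transporters extend well past the right-hand line, while each bar of the receptor, transcription factor and haem lists stands for at most 1 gene.

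The knockdown targets and markers of cell types were read in the same arrays. The probe that lists MRTFA (with RBM15) read 7.77 and 7.80 in control and 6.81 and 6.91 in knockdown cells. Its log2 difference of -0.93 was not tested. MRTFB read 7.20 and 7.22 against 6.84 and 7.11, with replicate 2 close to the controls (-0.23, SE 0.12, limma adjusted p = 0.448). Of 14 measured hepatocyte markers none was called in limma, and their median level was between 11.31 and 11.43 in the 4 arrays. At an unadjusted p under 0.05 in limma 1 was higher and 2 were lower, where 6.25% and 8.04% of all genes were. Log2 differences were negative in 10 and positive in 4 (28.6%, against 51.9% of all genes), with a median of -0.081. Groups were apart and lower for 5 and apart and higher for 3, against 23.0% and 22.5% of all genes. AFP lay at -0.31, KRT18 at -0.28 and ALB at 0.16. The highest difference was 0.55 for the dim TDO2, with 3.26 and 3.54 against 4.05 and 3.85. The 13 markers of stellate, endothelial and leukocyte cells had median levels between 5.24 and 5.44. Their log2 differences were positive in 10 (76.9%, against 51.9% of all genes). At an unadjusted p under 0.05 in limma 1 was higher and 1 lower (7.69% each). Groups were apart and higher for 4 (30.8%) and apart and lower for 1 (7.69%). That 1 was the endothelial LYVE1, at -0.96 (SE 0.117, limma adjusted p = 0.0563). The endothelial CDH5, VWF and PECAM1 lay at 0.11, 0.18 and 0.065. PTPRC, which was dim, read 2.78 and 2.80 against 3.22 and 2.96 (0.30). The 6 biliary and progenitor markers had none at an unadjusted p under 0.05, but PROM1 read 8.75 in knockdown replicate 1 and 9.93 in replicate 2, against 10.07 and 9.98. The difference between the knockdown arrays over all genes had an SD of 0.265, against 0.154 between the controls, and its part in the members' values was not tested.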

How the data were processed

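The deposited table holds log2 expression values of the 4 arrays as the authors processed them; per the labels these are 1-colour, biotin-labelled whole-transcript arrays, and the submitters' processing notes name Partek. For background correction and normalization, the method is not given in the sources used here. That the values are log2 was read off their range. Of 33297 probes, 19460 list 1 gene symbol, 1754 several, and 12083 have no entry in the platform annotation. Entrez identifiers gave the current symbol (19429 found in RefSeq GRCh38.p14, the source of the promoters too). Where a gene had several probes the brightest on average was kept, which gave 18417 genes. Groups and replicate numbers came from sample titles.

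Differences were tested across all genes by lmFit and eBayes of limma 3.58.1 (R 4.3.3; group as the only term, two-sided, Benjamini-Hochberg over all genes, threshold 0.05), with 2 residual and 4.12 prior degrees of freedom. Errors are SDs over 2 arrays for levels and moderated standard errors for differences. Members and lists were chosen with earlier results of these data known. Named with all values were members called, members apart by at least 0.5 above the median level, the 4 largest apart below it, a fixed set of well-known genes and the 2 genes with the smallest p in each direction of a list; values of other members were added after they were seen. Some genes of these families had no probe listing them alone and were not analysed here. One planned promoter motif is not reported here. The procedure was tested on simulated data. Alternatives changed the filter, normalization, probes, moderation, threshold, arrays, replicate block and reading of the rule.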

Additional observations from a re-analysis of the deposited data

How the results depend on the processing

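No member was called over all genes in limma under any alternative that kept all 4 arrays, with the threshold raised to 0.1 as the exception, where 1 member, FMO5, passed. At the 0.05 threshold the share of all genes or probes called in these settings was itself small, 0.0% to 0.505%. It was 0.0% with all single-gene and unnamed probes and without variance moderation, so no member could be called there. Leaving out each array in turn gave 0 to 12 members called, 8 to 23 higher and 0 to 6 lower at an unadjusted p under 0.05, and a median log2 difference of 0.093 to 0.15. Without the dimmest 40% of genes 20 members were left, of which 4 were higher and 1 lower, with a median log2 difference of 0.091. Without variance moderation the count of 14 higher and 2 lower among all 65 fell to 4 and 1. For these counts no shares of all genes are given. With the P450 number read as the whole family, 53 members were left, with 11 higher and 1 lower, where 6.25% and 8.04% of all genes were. With coding members alone, an alternative added after the data were seen, the counts were again 14 and 2 (23.3% and 3.33%).

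The replicate number as a block gave 0 members called, with 93 of all genes called against 32 without it. At an unadjusted p under 0.05 in limma 16 members were higher and 2 lower there, and for these counts no shares of all genes are given. Deviations of same-numbered arrays had a correlation of -0.067 over genes and the labels do not say what a number marks, so no pairing was assumed. Of the 24 members recomputed under every alternative, the direction turned in 5, each with 1 knockdown array left out. Over all 65, 23 had their knockdown arrays on opposite sides of the control mean, among them CYP26B1, CYP4A22, CYP2J2, CYP11A1 and CYP2W1. No share of all genes is given for this count. The log2 differences over arrays left out ran from -0.0802 to 2.01 for AADAC, from -0.64 to 0.71 for CYP1A1, from -0.0459 to 0.14 for CYP1A2, from -0.89 to 0.16 for CYP1B1 and from -0.13 to 0.0316 for CYP2D6. With 1 knockdown array left out, members passed the threshold that they missed with 4 arrays in 15 cases, 13 of them among the 24. The cause was not tested. No detection calls were available, so dim members are limited by an unknown background, and 2 arrays a group limit the precision.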
